A study of Mus musculus with 6 samples.

Results

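Fatty acid activation, thioester cleavage and oxidation form the module described here, a set of 48 mouse genes listed by name. A gene was measured if at least 1 probe set of the array carried its symbol alone, and the brightest such probe set stood for it. This gave 39 of the 48 listed genes, out of 16813 genes measured on the array. Acot7, Acot8, Acot9, Acot13, Acsl1, Slc27a2, Cpt1b, Acadm and Eci1 had no such probe set and were left out of the counts. Whole uteri were taken at 2 weeks of age from intact females, and there were 3 Affymetrix arrays of the genotype labelled Arid1a d/d and 3 of the genotype labelled Arid1a f/f. In the usual notation d stands for a deleted allele and f for a floxed one, so both genotypes descend from the floxed allele. The recombinase, the cells it acts in, the deleted exons and the strain are not given in the sources used here, nor whether an array holds 1 animal or a pool. The study's title concerns the part Arid1a, which encodes a SWI/SNF subunit, plays in endometrial gland development.

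A fatty acid enters metabolism when an acyl-CoA synthetase joins it to coenzyme A, and thioesterases undo that bond. The carnitine shuttle brings long-chain acyl groups into mitochondria, where dehydrogenases, hydratases and a thiolase shorten them in rounds and the electron transfer flavoprotein takes up the electrons. Peroxisomes carry out a related oxidation, and PPARα, encoded by Ppara, is a nuclear receptor that activates many of these genes in liver.

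All values are RMA signals on the log2 scale, and each difference is d/d minus f/f. The targeted gene Arid1a measured 6.98, 7.06 and 7.04 in d/d arrays 1, 2 and 3, against 7.54, 7.58 and 7.71 in f/f arrays 1, 2 and 3. The log2 difference of Arid1a was -0.58 ± 0.09 (SE; limma adjusted p = 0.0260 over genes). That call was lost without any 1 of d/d 2, d/d 3, f/f 1, f/f 2 or f/f 3, with log2 differences between -0.62 and -0.53. Array d/d 1 stood nearest to f/f 1, with a correlation of 0.9946 over all probe sets. It correlated at 0.99105 and 0.99111 with f/f 2 and f/f 3, slightly above 0.99012 and 0.99054 with d/d 2 and d/d 3. Uterine markers lay well above the median probe set in both genotypes. The smooth muscle list averaged 8.90, 8.41 and 8.65 in d/d arrays 1, 2 and 3, against 8.94, 8.76 and 8.97 in f/f arrays 1, 2 and 3, and the stroma list 9.53, 9.24 and 9.31 in d/d arrays, against 9.74, 9.72 and 9.86 in f/f arrays. In whole tissue, fewer cells of a type and less RNA per cell cannot be told apart.

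Them5 was lower in d/d uteri, and it was the 1 member of 39 that passed an adjusted p of 0.05 over all genes. Of all genes on the array 1.14% passed: 0.512% of all genes were lower and 0.630% higher in d/d. The list was drawn up with the fall of Them5 known. No other member rose or fell by this test, and none of the 66 probe sets of the 38 other members passed over all probe sets. Of the 39 members, 28 had a negative difference and 11 a positive one. The median difference of the members was -0.098, beside -0.011 over all genes, and 53.4% of all genes had a negative difference. An unadjusted p under 0.05 was found for 10 members, 8 lower and 2 higher, where 12.2% of all genes had one. For 7 members the d/d and f/f values did not overlap, 2 of them higher and 5 lower in d/d, which is 17.9% of the members beside 16.5% of all genes (7.10% higher and 9.42% lower).

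The 95% interval of the log2 difference lay within a 1.5-fold change in either direction, ±0.58, for 30 of 39 members (76.9%). That share was below the 83.3% of all genes and near the 76.6% of genes with a mean above the median probe set. The 9 whose interval reached further were Them5, Them4, Acot1, Acot4, Acsl3, Acsl4, Acsl5, Acsl6 and Slc27a3. All of these are thioesterases, acyl-CoA synthetases or a transport protein. The members of the carnitine shuttle, the mitochondrial steps, the peroxisomal steps, the electron transfer flavoprotein and Ppara all had intervals within that range. Of these, Cpt2 and Ehhadh had both means below 2.69, the median over all probe sets. Acox3 (means of 2.54 in d/d and 2.70 in f/f) and Ppara (2.83 in d/d and 2.96 in f/f) lay close to it. Background compresses signal there, so a narrow interval may understate a change.

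**Figure D1:**
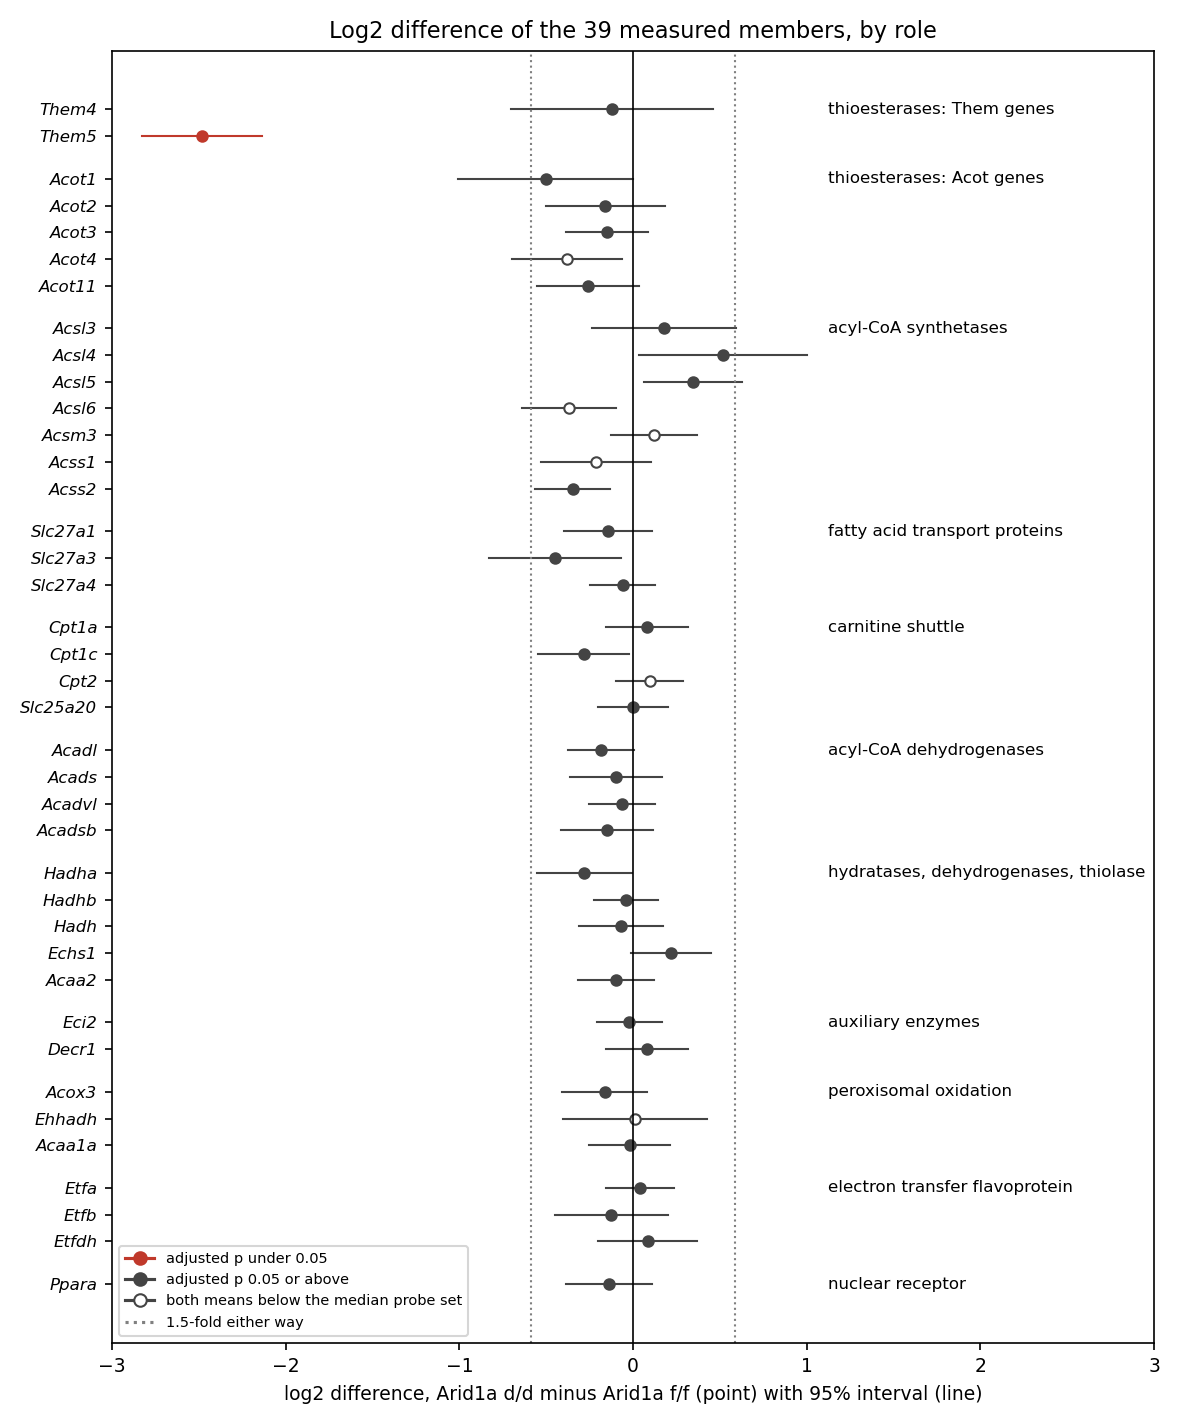
Log2 difference, d/d minus f/f, of each measured member (point) with its 95% interval (line), grouped by role. Them5 lies at -2.48, and the other 38 points lie between -0.50 and 0.52, with 30 intervals inside the dotted lines at a 1.5-fold change.

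Them5 encodes a thioesterase of the mitochondrial matrix that cleaves long-chain acyl-CoA and is tied to the remodelling of cardiolipin. Its brightest probe set, 1453801_at, measured 2.15, 1.92 and 1.98 in d/d arrays 1, 2 and 3, against 4.43, 4.26 and 4.81 in f/f arrays 1, 2 and 3. The groups lay far apart, and d/d 1 stood with the other d/d arrays. The means were 2.02 ± 0.12 in d/d and 4.50 ± 0.28 in f/f (SD, n = 3 each), a log2 difference of -2.48 ± 0.15 (SE; limma adjusted p = 0.00245 over genes), or a 5.59-fold fall. By p-value Them5 ranked 1 among 16813 genes, and by size of fall it ranked 3. All d/d values lay below 2.69, the median over all probe sets, where background compresses the signal. Set against that median in place of the d/d values, the f/f mean was 3.52-fold higher.

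The other Them5 probe sets were lower in d/d as well. Probe set 1431211_s_at measured 2.62, 2.54 and 2.47 in d/d arrays and 4.19, 3.64 and 3.94 in f/f arrays. Its log2 difference was -1.38 ± 0.14 (SE; limma adjusted p = 0.00869 over probe sets), and the groups did not overlap. The suffix _s_at marks probes that match several transcripts. Probe set 1429354_at measured 1.59, 1.37 and 1.62 in d/d arrays and 2.00, 2.08 and 1.76 in f/f arrays, all below 2.69. Its groups did not overlap, but its log2 difference of -0.42 ± 0.12 (SE) did not pass (limma adjusted p = 0.225). The brightest probe set passed with each array left out, while the call of 1431211_s_at was lost without d/d 3 (adjusted p = 0.0568) or f/f 3 (adjusted p = 0.0558).

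**Figure D2:**
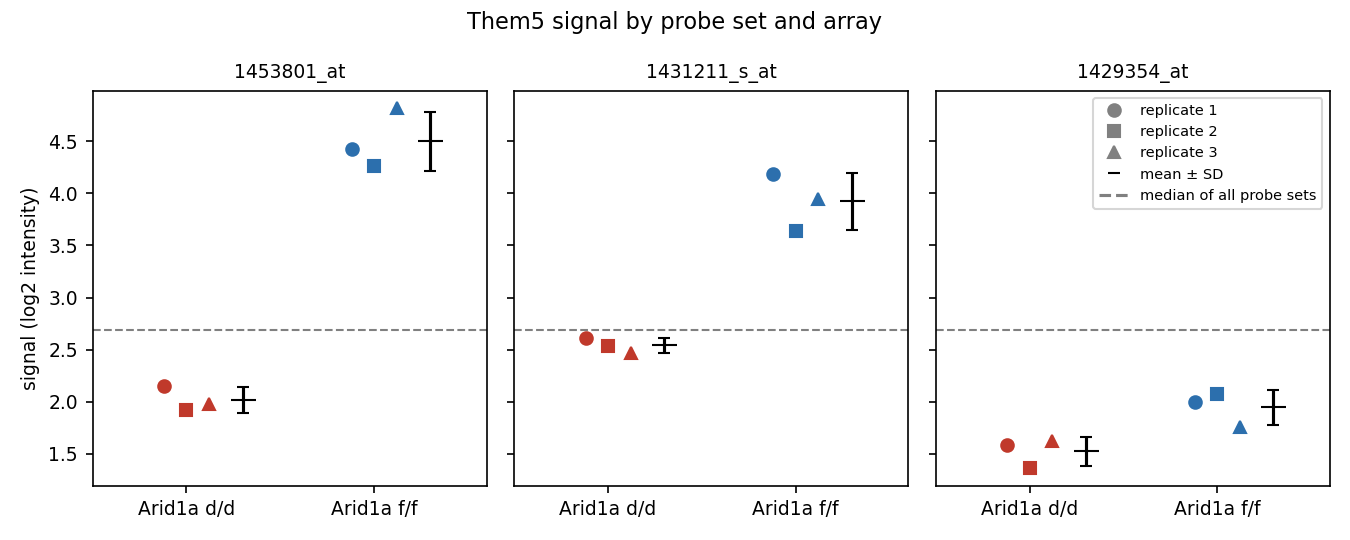
Signal (log2 intensity) of the 3 Them5 probe sets by array, d/d left and f/f right, with mean ± SD and the median of all probe sets as a dashed line at 2.69. All d/d values lie below the dashed line and below every f/f value of the same probe set, and 1429354_at lies below the line in both genotypes.

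Them4, the gene next to Them5 on chromosome 3 in the RefSeq gene order, encodes a related mitochondrial thioesterase. It measured 3.67, 3.47 and 3.64 in d/d arrays, against 4.08, 3.07 and 3.995 in f/f arrays. The f/f arrays enclosed all d/d values. The sign turned without f/f 1 (0.062) or f/f 3 (0.020). With all arrays the log2 difference was -0.12 with a 95% interval from -0.70 to 0.46, so a change within that range could not be told from none. On the other side of Them5 the nearest measured genes, Tdrkh, Oaz3 and Mrpl9, had log2 differences of -0.020, 0.0071 and 0.015 and did not pass, though Tdrkh and Oaz3 lay below 2.69 in both genotypes.

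The promoters of Them5 and Them4 are printed because the genes lie side by side. Them5 passed the test and Them4 did not, with an interval too wide to call Them4 unchanged. Any part of the promoter sequence in the Them5 difference was not tested. RefSeq's windows on GRCm38.p6 span 300 bases across the start of each gene, on the plus strand, at chr3:94341849-94342148 for Them5 and chr3:94309882-94310181 for Them4, with each CG dinucleotide in capitals.
Them5: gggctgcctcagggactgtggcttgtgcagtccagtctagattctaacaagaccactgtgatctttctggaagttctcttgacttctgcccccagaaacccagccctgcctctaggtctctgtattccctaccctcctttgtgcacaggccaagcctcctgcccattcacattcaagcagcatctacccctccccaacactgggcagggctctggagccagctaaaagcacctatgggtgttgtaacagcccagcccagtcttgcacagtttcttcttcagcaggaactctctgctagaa
Them4: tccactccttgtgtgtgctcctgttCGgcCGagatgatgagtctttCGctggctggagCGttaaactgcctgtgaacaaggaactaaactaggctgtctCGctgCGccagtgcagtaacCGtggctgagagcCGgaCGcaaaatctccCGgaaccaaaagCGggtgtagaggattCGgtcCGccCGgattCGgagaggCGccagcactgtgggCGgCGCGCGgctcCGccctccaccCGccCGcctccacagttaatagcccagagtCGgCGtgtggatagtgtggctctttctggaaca
The Them5 window held 0 CG dinucleotides and the Them4 window 25. Promoters were matched for 44 of the 48 genes, in 51 windows with a median of 16 CG dinucleotides, and the Them5 window was the 1 among them with none. Of all 32851 promoter windows, with a median of 7, 5.4% had none. The GC box GGGCGG, read on both strands, occurred 4 times in the Them4 window and 0 times in that of Them5. It was found in 38 of the 51 member windows and in 35.7% of all windows. Neither window held a direct repeat of AGGTCA with 1 base between the copies, a form of the site that PPAR receptors bind, or the forkhead motif TGTTTAC, both read on both strands. That repeat was in 0 of the 51 member windows and in 0.0396% of all windows, and TGTTTAC in 1 of the 51 and in 3.65% of all.

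Markers of uterine epithelium differed in the same arrays as Them5. Of 7 measured markers of glandular epithelium, Foxa2, a gland transcription factor, and Cxcl15, a secreted gland chemokine, fell, by log2 differences of -1.41 for Foxa2 and -3.71 for Cxcl15, and 5 did not pass. The Foxa2 call was lost without d/d 2, d/d 3, f/f 2 or f/f 3 (adjusted p up to 0.0834). Ttr, a carrier protein gene, had -0.14. The mean of the gland list was 2.45 to 2.55 in d/d and 3.17 to 3.38 in f/f arrays, with Prss28, Lif and Wfdc3 below 2.69 in both genotypes. The median difference of this list was -0.14, smaller than its mean values may convey, with 6 genes negative and 1 positive. Of 8 markers of simple epithelium, Muc1, a surface mucin, and Cdh1, the epithelial cadherin, rose, with log2 differences of 1.03 and 0.997, and 6 did not pass. Both calls were kept without d/d 1 and lost without any 1 of the other arrays, with adjusted p up to 0.151. Among the 6, the keratin genes Krt18 and Krt8 had 0.62 and 0.61, while Ehf, an epithelial transcription factor, had -0.53 and Cldn3, a tight junction protein, -0.18. The list mean was 8.13 to 8.25 in d/d and 7.72 to 7.88 in f/f arrays. Their part in the Them5 difference was not tested.

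The Acot genes encode acyl-CoA thioesterases, and Acot1 to Acot4 lie in a cluster on chromosome 12 with Acot5 and Acot6. All 5 measured Acot members had a negative difference, as did 53.4% of all genes, and none passed. Of the Acot genes outside the module, Acot5 and Acot6 had -0.064 and -0.21. Acot12 had 0.23, with every d/d value above every f/f value and both means below 2.69, and none of these passed either. Acot1, a cytosolic enzyme, measured 5.92, 5.28 and 5.34 in d/d arrays 1, 2 and 3, against 6.40, 5.87 and 5.79 in f/f arrays 1, 2 and 3. Array d/d 1 reached into the f/f range, and d/d 2 and d/d 3 lay below it. The log2 difference of Acot1 was -0.50 ± 0.22 (SE; limma adjusted p = 0.409), with an interval from -1.01 to -0.00088. A probe set annotated to both Acot1 and Acot2, which the module's count leaves out, measured 6.04, 5.52 and 5.69 in d/d arrays and 6.53, 6.45 and 6.11 in f/f arrays. Its groups did not overlap, and its log2 difference of -0.61 ± 0.16 (SE) did not pass over probe sets (limma adjusted p = 0.195). Of the 3 probe sets that name a member with another gene, it had the largest difference. The probe set of Acot9 and Acot10 gave -0.082, with groups that overlapped (limma adjusted p = 0.867). That of Acss2 and Gssos2 gave -0.18, with both means below 2.69 (limma adjusted p = 0.666). Acot1 and Acot2 are close in sequence, so their probes may share signal.

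Acot2, the mitochondrial enzyme of that cluster, had a log2 difference of -0.16 by its brightest probe set. Acot4, a peroxisomal thioesterase, measured 1.77, 1.46 and 1.30 in d/d arrays and 2.01, 1.91 and 1.74 in f/f arrays. These Acot4 values all lay below 2.69, so the difference of -0.38 ± 0.14 (SE; limma adjusted p = 0.312) rests on signal near background. Acot3, also peroxisomal, measured 2.95, 2.85 and 2.85 in d/d arrays and 3.15, 3.10 and 2.86 in f/f arrays, with groups that overlapped. Its probe set carries the suffix _s_at. Acot11, a thioesterase known from brown fat, measured 4.80, 4.40 and 4.38 in d/d arrays 1, 2 and 3, against 4.83, 4.74 and 4.79 in f/f arrays. Here too d/d 1 stood among the f/f arrays, and the log2 difference was -0.26 ± 0.13 (SE; limma adjusted p = 0.486).

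All 7 measured fat cell markers had a negative difference with groups that did not overlap, where 9.42% of all genes did. Markers of 1 cell type can vary together over the same 6 arrays, so these are not 7 separate observations. Pck1, a gluconeogenic enzyme that fat cells also use, was the 1 that passed, at -1.83. Of the 7 markers, 1 lay below 2.69 in both genotypes. The Pck1 call was kept without d/d 1 and lost without any 1 of the other arrays, with adjusted p up to 0.166, and the mean of its probe sets gave -0.67. Retn and Adipoq, hormone genes of fat cells, had -1.46 and -1.59. The mean of this list was 4.96, 3.997 and 4.20 in d/d arrays 1, 2 and 3, against 5.45, 5.30 and 5.88 in f/f arrays 1, 2 and 3. Adipoq, the adiponectin gene, measured 7.05, 5.49 and 5.90 in d/d arrays and 7.50, 7.61 and 8.11 in f/f arrays. Array d/d 1 was the highest of the d/d arrays for this list, as it was for Acot1, Acot11 and the smooth muscle, stroma and endothelium lists. Among the f/f arrays the fat cell list was highest in f/f 3 and lowest in f/f 2. Acot1 was lowest in f/f 3 (5.79, beside 5.87 in f/f 2), and Acot11 was lowest in f/f 2 (4.74).

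Lists of other cell types had lower means in d/d arrays too. All 10 stroma markers had a negative difference, with a median of -0.34. For 5 of them the groups did not overlap, where 9.42% of all genes were lower in d/d with such groups. Thy1, a surface protein of fibroblasts, was the 1 of them that fell, at -1.06 (limma adjusted p = 0.0155), a call lost without d/d 2, d/d 3, f/f 2 or f/f 3 (adjusted p up to 0.0856). Hoxa11, Mmp2 and Dcn in the same list had -0.42, -0.45 and -0.76. All 7 smooth muscle markers had a negative difference, with a median of -0.21, and none passed. Des, Smtn, Tagln and Mylk among them had -0.46, -0.31, -0.21 and -0.24. All 5 measured endothelium markers had a negative difference, with a median of -0.67, and none passed. An unadjusted p under 0.05 was found for 4 of them, beside 12.2% of all genes. Emcn, Esam, Cdh5 and Pecam1 among them had -0.67, -0.71, -0.75 and -0.63. The endothelium list averaged 6.74, 6.24 and 6.45 in d/d arrays 1, 2 and 3, against 7.14, 6.995 and 7.11 in f/f arrays 1, 2 and 3. The part of any of these cell types in the differences of the members was not tested. Of the brown fat markers 4 were measured and none passed, with Elovl3 at -0.11, Dio2 at 0.11, Otop1 at -0.019 and Cox8b at 0.0051, and Elovl3 and Otop1 lay below 2.69 in both genotypes. Of 10 skeletal muscle markers none passed, 6 lay below 2.69 in both genotypes, and Acta1, Tnni2, Myh4 and Myl1 had -0.66, -0.23, -0.11 and -0.11. The 4 measured hepatocyte markers, Ahsg, Fgb, Alb and Apoa1, all lay below 2.69, with differences from -0.031 to 0.12.

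The acyl-CoA synthetases did not move one way: of 7 measured, 4 had a positive and 3 a negative difference, and none passed. Acsl4, which prefers arachidonic acid, measured 8.21, 8.27 and 7.63 in d/d arrays 1, 2 and 3, against 7.86, 7.29 and 7.40 in f/f arrays 1, 2 and 3. Array d/d 3 lay below f/f 1, so the groups overlapped. The log2 difference of Acsl4 was 0.52 ± 0.21 (SE; limma adjusted p = 0.373), the largest positive one among the 39 members, and its dimmer probe set gave 0.34. Acsl5, a long-chain synthetase abundant in intestinal epithelium, measured 7.02, 7.28 and 7.39 in d/d arrays and 6.74, 6.98 and 6.93 in f/f arrays. Every d/d value of Acsl5 lay above every f/f value. Its log2 difference was 0.35 ± 0.12 (SE; limma adjusted p = 0.297). Acsl3, a synthetase of lipid droplets, had a log2 difference of 0.18 with an interval from -0.24 to 0.59.

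Acss2 makes acetyl-CoA from acetate in cytosol and nucleus. It measured 3.77, 3.84 and 3.75 in d/d arrays and 4.09, 4.04 and 4.28 in f/f arrays, with groups that did not overlap. The log2 difference of -0.35 ± 0.09 (SE) had the smallest p among members after Them5 but did not pass (limma adjusted p = 0.161). A second Acss2 probe set measured 4.02, 3.84 and 3.29 in d/d arrays and 3.91, 3.51 and 4.51 in f/f arrays, and there the groups overlapped. Acss1, its mitochondrial counterpart, measured 2.26, 2.17 and 2.03 in d/d arrays and 2.57, 2.44 and 2.09 in f/f arrays. Acsl6, a synthetase of brain, measured 1.74, 2.02 and 1.82 in d/d arrays and 2.12, 2.41 and 2.17 in f/f arrays. Both of these lay below 2.69 on all arrays, with log2 differences of -0.22 for Acss1 and -0.37 for Acsl6 (limma adjusted p = 0.622 and 0.239). The medium-chain synthetase Acsm3 lay below it too, at 0.12.

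Slc27a1, Slc27a3 and Slc27a4 encode fatty acid transport proteins, which also carry synthetase activity. Slc27a3 measured 2.78, 3.13 and 3.11 in d/d arrays, against 3.26, 3.33 and 3.79 in f/f arrays. The groups did not overlap, and the log2 difference of -0.45 ± 0.16 (SE) did not pass (limma adjusted p = 0.315). Slc27a1 measured 4.90, 4.60 and 4.68 in d/d arrays and 4.90, 4.96 and 4.76 in f/f arrays, with d/d 1 inside the f/f range. Its other probe set gave a log2 difference of -0.29 beside -0.15. Slc27a4 differed by -0.060, with an interval from -0.25 to 0.13.

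In the carnitine shuttle, Cpt1a, the outer membrane transferase that limits the entry of long-chain acyl groups in most tissues, had means of 7.31 ± 0.07 in d/d and 7.23 ± 0.15 in f/f (SD, n = 3 each). Its log2 difference was 0.079, with an interval from -0.16 to 0.32, and its other probe sets gave 0.16 and 0.075. Slc25a20, the carrier of the inner membrane, differed by -0.0014, with an interval from -0.20 to 0.20. Cpt1c, a brain form found in the endoplasmic reticulum, measured 5.99, 5.82 and 5.71 in d/d arrays and 5.96, 6.23 and 6.19 in f/f arrays. Array f/f 1 lay among the d/d values, and the log2 difference of Cpt1c was -0.28 ± 0.11 (SE; limma adjusted p = 0.368). Cpt2, the inner membrane transferase, measured 2.31, 2.40 and 2.41 in d/d arrays and 2.25, 2.24 and 2.34 in f/f arrays, all below 2.69.

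The acyl-CoA dehydrogenases, which take the first oxidative step, differed little. Acadl, for long chains, measured 7.67, 7.69 and 7.64 in d/d arrays and 7.88, 7.77 and 7.91 in f/f arrays. Its groups did not overlap, and the log2 difference of -0.19 ± 0.08 (SE) did not pass (limma adjusted p = 0.425). Acadsb, for short branched chains, measured 6.74, 6.57 and 6.39 in d/d arrays and 6.61, 6.76 and 6.79 in f/f arrays. Array d/d 1 lay between f/f values there. Acadvl, for very long chains, differed by -0.066 with an interval from -0.26 to 0.13, and Acads, for short chains, by -0.098 with an interval from -0.36 to 0.17.

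Of the 5 measured mitochondrial hydratases, hydroxyacyl dehydrogenases and thiolase, 4 had a negative and 1 a positive difference, and none passed. Hadha, the α subunit of the trifunctional protein, measured 6.55, 6.49 and 6.72 in d/d arrays and 6.69, 6.85 and 7.06 in f/f arrays. Array d/d 3 lay just above f/f 1, and the log2 difference was -0.28 ± 0.12 (SE; limma adjusted p = 0.402). Hadhb, the β subunit of the same complex, differed by -0.041 with an interval from -0.23 to 0.14. Echs1, the short-chain enoyl-CoA hydratase, measured 8.11, 8.28 and 8.38 in d/d arrays and 7.95, 8.09 and 8.07 in f/f arrays. Every d/d value of Echs1 was above every f/f value, with a log2 difference of 0.22 ± 0.10 (SE; limma adjusted p = 0.445). Hadh, a hydroxyacyl-CoA dehydrogenase, differed by -0.070 and Acaa2, the thiolase, by -0.098. The other Acaa2 probe sets gave -0.13 and -0.34, and for the probe set at -0.34 the groups did not overlap, with an adjusted p of 0.377 over probe sets (limma). The auxiliary enzymes for unsaturated chains stood at -0.021 for Eci2, an isomerase, and 0.082 for Decr1, a reductase.

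Peroxisomal members gave no call. Acox3, an oxidase of branched chains, measured 2.67, 2.55 and 2.39 in d/d arrays and 2.64, 2.64 and 2.82 in f/f arrays, and the groups overlapped. Ehhadh, the bifunctional enzyme, differed by 0.012, with an interval from -0.40 to 0.43 and with its d/d and f/f means below 2.69. Acaa1a, the peroxisomal thiolase, differed by -0.019, with an interval from -0.25 to 0.22. Etfa and Etfb, the subunits of the electron transfer flavoprotein, stood at 0.042 and -0.13, and Etfdh, which passes the electrons to ubiquinone, at 0.083. Ppara itself measured 2.83, 2.89 and 2.76 in d/d arrays and 2.82, 2.93 and 3.15 in f/f arrays. Its groups overlapped, and the log2 difference was -0.14, with an interval from -0.38 to 0.11.

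**Figure D3:**
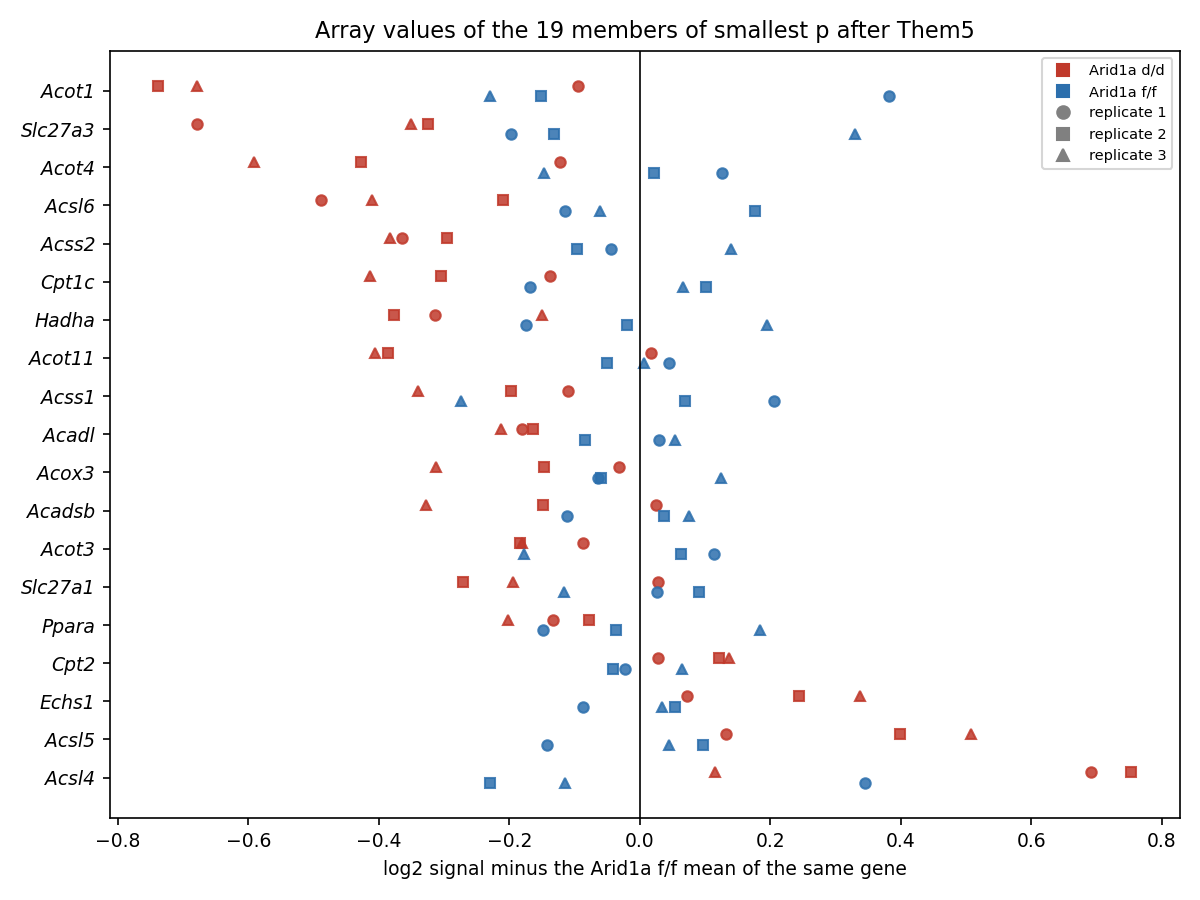
Log2 signal of each array minus the f/f mean of the same gene, for the 19 members of smallest unadjusted p after Them5, with d/d in red, f/f in blue and the replicate number as the marker. The groups overlap for 13 of the 19, and for Acot1 and Acot11 the d/d 1 circle lies among the f/f values.

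Probe sets of a gene were compared with one another. Of the measured members 22 had several probe sets, and for 15 of them these all had the same sign. The 7 with both signs were Them4, Acsl3, Acadl, Hadhb, Hadh, Decr1 and Ppara. For Decr1 the probe sets gave 0.082 and -0.16, and both lay above 2.69. The spread between arrays of a genotype, as the residual SD of a member, had a median of 0.133, beside 0.136 over all genes. Them4 had the widest spread, at 0.404, and Eci2 the narrowest, at 0.044.

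The count of members whose groups did not overlap depended on single arrays. It was 21 of 39 (53.8%) without d/d 1, where 35.4% of all genes had such groups, and 17 (43.6%) without f/f 1, where 26.5% of all genes had them. It was 12 (30.8%) without d/d 3 and without f/f 3, beside 26.1% and 26.8% of all genes, and 10 (25.6%) without f/f 2, beside 24.4%. Without d/d 2 it was 7 (17.9%), below the 21.8% of all genes. Fewer arrays make such a separation easier, for all genes as for the members. Why the shares differed with the array left out was not tested. The median difference of the members was -0.042 without f/f 3. Them5 remained the 1 member called without each array.

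Other genes of fatty acid metabolism were examined by list, also drawn up with earlier results known. In the list of fatty acid uptake, binding and lipolysis 1 of 13 measured genes rose and none fell. Mgll, the monoglyceride lipase, measured 7.48, 7.62 and 7.56 in d/d arrays and 6.61, 6.81 and 7.06 in f/f arrays. Its groups did not overlap, and the log2 difference was 0.72 ± 0.12 (SE; limma adjusted p = 0.0446). The Mgll call was lost with each single array left out other than d/d 1, with adjusted p up to 0.201, and with the mean of its probe sets (0.50, adjusted p = 0.0639). It was also lost with each array centred on its median (adjusted p = 0.0517). In the same list Fabp4, Lipe and Lpl, a binding protein and lipases that fat cells express, had log2 differences of -1.20, -0.66 and -0.57 and did not pass. Fabp4 and Lipe are also among the 7 fat cell markers above.

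Among PPAR receptors and coregulators, none of 9 measured genes passed. Ppargc1a, the coactivator PGC-1α of mitochondrial genes, measured 5.49, 6.49 and 6.02 in d/d arrays 1, 2 and 3, against 5.01, 4.96 and 5.20 in f/f arrays 1, 2 and 3. The groups did not overlap, and d/d 1 was the d/d array nearest to f/f. The log2 difference of Ppargc1a was 0.94 ± 0.23 (SE; limma adjusted p = 0.121), and without d/d 1 it was 1.20 (adjusted p = 0.00568). Leaving out d/d 1 also took the genes past the threshold to 821, against 192 with all arrays. Without any 1 of the other arrays Ppargc1a did not pass, with log2 differences from 0.697 to 1.01 and adjusted p from 0.269 to 0.358. Ppard, a receptor related to PPARα, measured 3.10, 3.09 and 2.98 in d/d arrays and 3.56, 3.42 and 3.39 in f/f arrays. Its log2 difference was -0.40 ± 0.09 (SE; limma adjusted p = 0.0940). The probe set of largest variance gave -0.15 for Ppard (adjusted p = 0.829) and the mean of its probe sets -0.28 (adjusted p = 0.315). Pparg, the receptor of fat cells, stood at -0.56 and Nrip1, a corepressor, at -0.24.

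**Figure D4:**
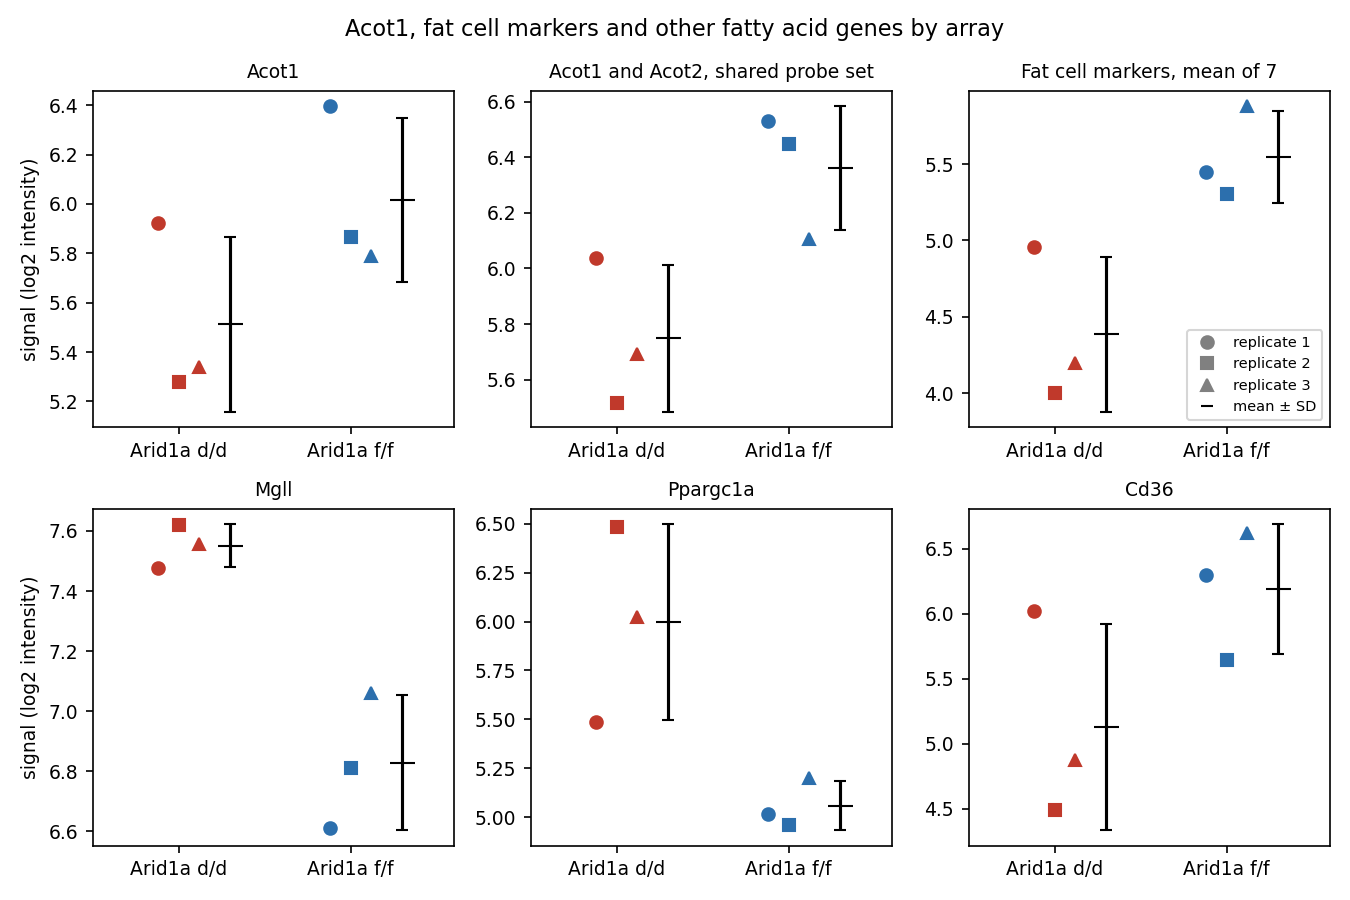
Signal (log2 intensity) by array, d/d left and f/f right, with mean ± SD, for Acot1, the probe set shared by Acot1 and Acot2, the mean of 7 fat cell markers, Mgll, Ppargc1a and the fatty acid transporter gene Cd36. Mgll and Ppargc1a lie higher and the fat cell mean lower in all d/d arrays, and in Acot1 and Cd36 the d/d 1 circle lies within the f/f range.

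None passed among 12 other peroxisomal genes, with a median log2 difference of -0.028. Acaa1b, a peroxisomal thiolase, measured 1.75, 1.56 and 1.72 in d/d arrays and 2.14, 1.95 and 2.29 in f/f arrays. Its groups did not overlap, all values lay below 2.69, and the log2 difference was -0.45 ± 0.11 (SE; limma adjusted p = 0.126). Pex11a, a peroxisome proliferation gene, measured 6.45, 5.14 and 5.38 in d/d arrays 1, 2 and 3 and 6.56, 6.28 and 6.20 in f/f arrays. Array d/d 1 again lay in the f/f range, and the log2 difference of Pex11a was -0.69 (limma adjusted p = 0.434). Pecr, a reductase, stood at 0.23 and Hacl1, a lyase of α-oxidation, at -0.23. Among 16 other synthetases, thioesterases and dehydrogenases none passed, with a median of -0.056. Acad9, a dehydrogenase that also assembles respiratory complex I, stood at 0.31 and Acsf2, an acyl-CoA synthetase, at -0.31, both with groups that did not overlap. Ivd, a dehydrogenase of leucine breakdown, stood at -0.26 and Acsm5, a medium-chain synthetase, at 0.18. Of 7 genes of ketone body use and PPAR-responsive genes none passed, with a median of -0.011. For 4 of the 7, Vnn1, Fgf21 and Ucp3 included, both genotype means lay below 2.69, near background. Vnn1, a pantetheinase, stood at 0.26, Fgf21, a hormone of fasting, at -0.14, Acat1, a mitochondrial thiolase, at 0.13 and Ucp3, a mitochondrial carrier, at -0.13.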

How the data were processed

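Uterine RNA was hybridised to 6 arrays, 3 per genotype, from 500 ng of total RNA each, per the labels. The deposited values are intensity per probe set on a linear scale (1.94 to 7186), made by the authors with RMA, per the submitters' processing notes, with no version given. RMA compresses differences near background. The labels name no genome build. Log2 was taken with no added constant. Precision is limited by how few arrays there are.

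The platform annotation gave exactly 1 symbol to 31562 of 41420 probe sets, several to 830 and none to 9028. The test was limma 3.58.1 (R 4.3.3; lmFit, eBayes, 2-sided, no covariate), with Benjamini-Hochberg adjustment over all 16813 genes or all probe sets, threshold 0.05. Intervals are 95% intervals from the moderated fit over genes, with 4 residual degrees of freedom to which the fit adds 3.66 prior ones. The steps were tested on simulated data. The labels do not say whether arrays came from separate animals, so a p-value here reflects only how these samples vary, part of which may be technical.

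The members and all gene lists were chosen with earlier results of these data known. Array values are given for each Them5 probe set and the 20 members of smallest p, and up to 4 genes of smallest p are named per other list. Cd36, Ehf, Cldn3, Lif, Wfdc3, Acot5, Acot6, Acot12 and the genes next to Them5 fall outside that rule and were picked with their values known. Promoter windows came from RefSeq. The alternatives were a replicate block, a trend with robust variance, array weights, repeated quantile normalization, median centring, leaving out the dimmest 40% of probe sets or those with the suffix _x_at, a looser threshold, other choices of probe set, log2(value + 1), and each array left out. Applying them to named genes that are not members was decided after seeing the data.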

Additional observations from a re-analysis of the deposited data

How the results depend on the processing

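Them5 stayed past the threshold under all 17 alternatives, with log2 differences from -2.60 to -1.43 (the latter with the mean of its probe sets) and adjusted p up to 0.0270. Replicate numbers were not treated as a pairing in the main test. The deviations from the genotype means correlated at 0.461, 0.0228 and 0.178 between arrays of equal number 1, 2 and 3. Between arrays of unequal number they correlated at -0.358 to 0.299. Whether arrays of equal number share a batch was not tested. With the replicate number as a block, 2 members passed, Them5 and Acot1 (-0.50, adjusted p = 0.0375), with 574 probe sets and 457 genes past the threshold beside 217 and 192 without it. Array weights gave 329 probe sets and 381 genes, and an adjusted p under 0.10 gave 462 and 403, which follows from the looser threshold. For the block and the weights the cause was not tested. Leaving out 1 array at a time gave 37 to 971 probe sets and 26 to 821 genes past the threshold, and 1 member called each time. Members with groups that did not overlap then numbered 7 to 21, the members' median difference ran from -0.10 to -0.042, Them5 from -2.60 to -2.33 and Arid1a from -0.62 to -0.53. Of the members with array values in all 6 arrays, Them4 ran from -0.44 to 0.062 with 1 array left out and turned direction without f/f 1 (0.062) and without f/f 3 (0.020), and the other 19 beside Them5 did not turn under the alternatives that measured them. Signal near background limits Them5 in d/d and the 6 members below 2.69 in both genotypes.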

Other observations

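Genes of fatty acid synthesis and of the tricarboxylic acid cycle, which stand on either side of fatty acid oxidation, gave no call. Of 15 measured genes of fatty acid synthesis 11 had a negative difference, with a median of -0.080. Thrsp, a lipogenic regulator abundant in fat and liver, measured 8.60, 7.51 and 7.69 in d/d arrays 1, 2 and 3, against 8.65, 9.12 and 8.75 in f/f arrays (log2 difference -0.90 ± 0.27 SE; limma adjusted p = 0.222). Acacb, the carboxylase whose product inhibits the carnitine shuttle, measured 4.004, 3.87 and 3.67 in d/d arrays and 4.17, 4.34 and 4.34 in f/f arrays (-0.44 ± 0.11 SE; limma adjusted p = 0.141). Its groups did not overlap. Gpam, an acyltransferase, and Elovl7, an elongase, stood at -0.36 and -0.16. Of 12 measured genes of the tricarboxylic acid cycle 8 had a positive difference, with a median of 0.049. Idh3a, Sdhd, Ogdh and Fh1 among them stood at 0.25, 0.18, -0.12 and 0.14, over a range from -0.12 to 0.25, and no groups that did not overlap.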
